A study of Drosophila sechellia x Drosophila simulans with 8 samples.

Results

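Desat1 was among the most abundant messenger RNAs of both tissues of the flies studied, lower in oenocytes than in fat body of either sex by the kallisto estimates, and mostly made up of 1 transcript. Desat1 encodes the acyl-CoA desaturase that, in D. melanogaster, places the first double bond into saturated fatty acids. Its products enter membrane and storage lipids in many tissues and, in oenocytes, are the precursors of the unsaturated cuticular hydrocarbons that serve as waterproofing and as mating signals. Oenocytes are the cells under the abdominal cuticle that make these hydrocarbons, and the fat body is the insect tissue that stores lipid and secretes blood proteins.

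The gene was chosen by its symbol, Dsim\Desat1, and is 1 of the 14176 genes in the deposited gene table. The files place it on chromosome 3R; its start and end are not given in the sources used here. The flies were F1 hybrids of D. sechellia and D. simulans, so each cell carried both species' copies of every autosomal gene. Neither the labels nor the design text names the maternal species.

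The 4 groups were female oenocytes, male oenocytes, female fat body and male fat body, with 2 libraries each. All flies were 10 days old, were kept on a light and dark cycle, and were dissected from the dorsal abdomen at evenly spaced times over a day. Total RNA was extracted and sequenced on the Illumina platform. Nothing in the labels ties a library to separate flies or pools, so the p-values below measure the spread between these libraries, which may be technical. In bulk tissue, fewer cells of a type and less RNA per cell cannot be told apart.

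The kallisto tables held 10732070 to 34474092 estimated counts per library, and the aligned-read tables held 2275755 to 4642417 reads. By estimated counts of single-transcript genes, the male oenocyte pair was almost as close as sampling noise allows. Its chi-square per degree of freedom was 1.08 there, against 2.94 to 5.55 in the other groups. On this value the pair was summed and counted as 1 sample. With the transcripts of other genes included, the value was 7.54, against 15.4 to 30.4 in the other groups. Desat1, with 4 transcripts, is not a single-transcript gene. In tests with the pair summed, the spread therefore comes from the other 3 groups, and male oenocytes are assumed to vary like them. In the aligned-read tables, without a limit to single-transcript genes, the same 2 libraries had a chi-square per degree of freedom of 7.69. The other groups had 10.5 to 13.5 there. The tissue labels could be checked only in part. None of 7 listed oenocyte markers carried a symbol in the files, and 2 of 10 fat body markers did, the yolk protein gene Yp2 and the odorant-binding protein gene Obp99b. Their summed level was 91.8 to 37431 TPM (transcripts per 1000000) in oenocyte libraries and 521 to 88301 TPM in fat body libraries. Muscle was represented by 1 of 7 markers, up (a troponin T gene in D. melanogaster), at 3.55 to 5.78 TPM in oenocyte libraries and 13.4 to 19.3 TPM in fat body libraries. The blood cell marker Sr-CI, 1 of 6, was at 0.87 to 1.19 TPM in oenocyte libraries and 0.69 to 2.45 TPM in fat body libraries. The summed germline markers nos and bam, 2 of 4, were at 0.13 to 0.38 TPM in oenocyte libraries and at most 0.05 TPM in fat body libraries. No nervous system or tracheal marker carried a symbol.

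Desat1 stood at 6648 and 6242 TPM in female oenocytes, against 9292 and 8822 TPM in female fat body. The lower fat body library exceeded the higher oenocyte library, so the groups did not overlap. In males it stood at 5220 and 5214 TPM in oenocytes, against 12444 and 11117 TPM in fat body, again without overlap. Ordered by mean TPM, the groups ran from male oenocytes (5217, with no SD for a pair counted as 1 sample), through female oenocytes (6445 ± 287) and female fat body (9057 ± 332), to male fat body (11780 ± 938; SD, n = 2 libraries each). No 2 neighbours in this order overlapped. The share of all genes that separate in this way was not counted, so the lack of overlap here and below is only a description. The order is on unscaled TPM, and that of the 2 fat bodies turned with the scaling, as given below. The gene ranked 6 in both male fat body libraries, 7 in both female fat body libraries, 13 and 14 in female oenocytes, and 19 and 20 in male oenocytes, among all genes by TPM.

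Fitted on estimated counts with all transcripts in 1 model, Desat1 was lower in oenocytes than in fat body in both sexes, by a similar amount. In females the log2 fold change was −0.79 ± 0.06 (SE; edgeR quasi-likelihood test, Benjamini-Hochberg adjusted p = 0.000935), a level 1.73-fold lower in oenocytes. In males it was −0.81 ± 0.08 (edgeR adjusted p = 0.00231), or 1.75-fold lower. Tissue differences were common among the features tested: 26.0% were called in females and 21.4% in males. Those called lower in oenocytes made up 13.1% of all features in females and 11.3% in males. The difference between the female and male tissue effects was 0.01 ± 0.10 (95% interval −0.25 to 0.27; edgeR adjusted p = 1.0), in a contrast where 2.61% of features were called. Yp2, a yolk protein made in female fat body, moved with the tissue difference in females. It stood at 36351 and 37413 TPM in female oenocytes, against 88267 and 87132 TPM in female fat body, so that the oenocyte level was 42.1% of that in fat body. In males Yp2 was at 56.3 and 67.2 TPM in oenocytes and 54.6 and 84.7 TPM in fat body. Obp99b, the other fat body marker, stood at 21.6 and 18.3 TPM in female oenocytes, against 33.8 and 36.3 TPM in female fat body. In males it stood at 35.6 and 32.7 TPM in oenocytes, against 466 and 451 TPM in fat body. Its oenocyte level was thus 57.0% of that in fat body in females and 7.44% in males. Whether fat body RNA in the oenocyte samples bore on the Desat1 level was not tested.

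**Figure D1:**
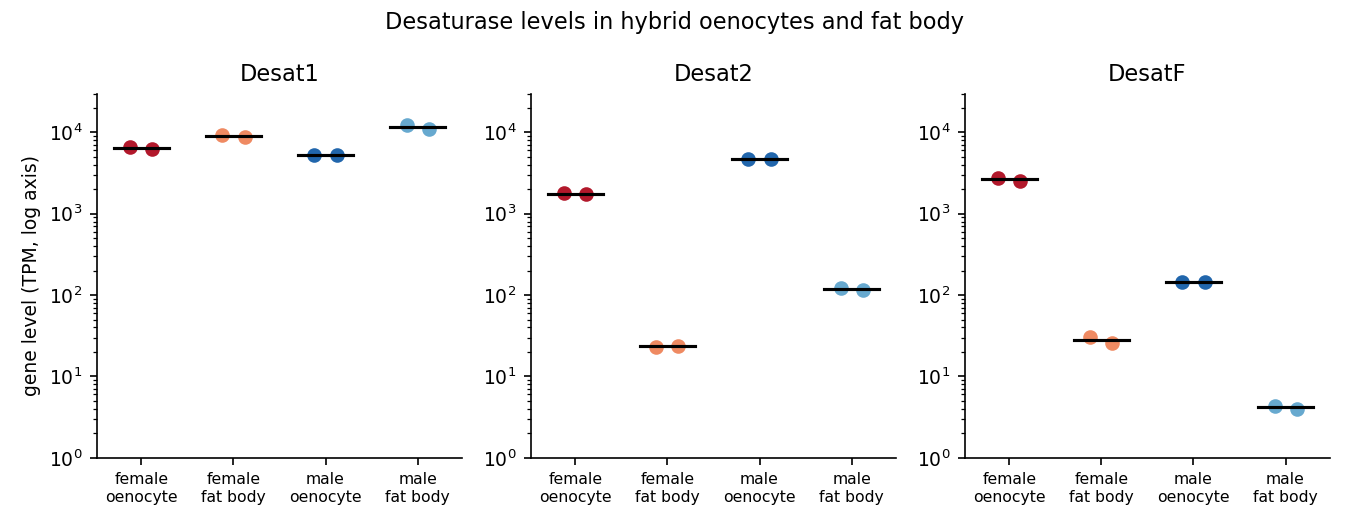
Gene levels of Desat1, Desat2 and DesatF in TPM on a log axis, with 1 point per library and a line at the mean of each group's 2 libraries. Desat1 lies between 5214 and 12444 TPM in every library, while Desat2 and DesatF average 23.4 and 28.0 TPM in female fat body.

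The tissue difference of Desat1 was not called in the aligned-read tables, which come from a second processing of the same libraries. As reads per 1000000 reads assigned to genes (RPM), Desat1 stood at 10910 and 8384 in female oenocytes and at 11091 and 11565 in female fat body. Male oenocytes had 15949 and 6978 RPM, against 11983 and 13857 RPM in male fat body. The 2 male oenocyte libraries thus lay on either side of both male fat body libraries, although their TPM values were almost equal. Desat2 behaved likewise in these 2 libraries, with 9086 and 2711 RPM beside 4679 and 4678 TPM. On aligned reads the edgeR log2 fold change of Desat1 was −0.44 ± 0.21 in females (adjusted p = 0.173) and −0.26 ± 0.27 in males (adjusted p = 0.559).

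**Figure D2:**
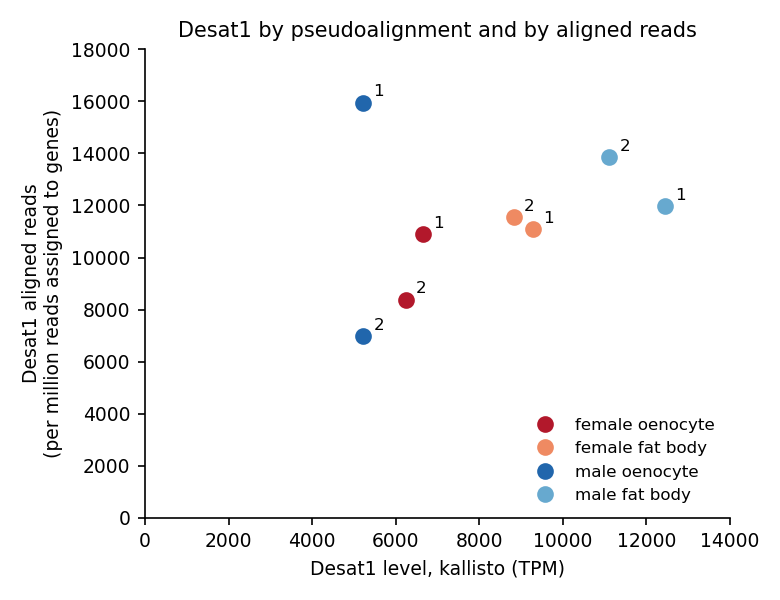
Desat1 in each library by kallisto (TPM, horizontal) and by aligned reads (RPM, vertical), with the replicate number beside each point. The 2 male oenocyte libraries share a TPM of about 5214 to 5220 and lie at 15949 and 6978 RPM.

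Between the sexes, Desat1 did not pass the threshold on estimated counts in either tissue, and the call depended on the treatment of the libraries. In oenocytes, scaled counts per 1000000 (CPM, on the trimmed-mean library sizes of edgeR) were 8576 and 8210 in females, against 6864 and 6868 in males. The log2 fold change of females over males was 0.28 ± 0.08 (95% interval 0.07 to 0.48), which did not pass the adjustment over all features (edgeR adjusted p = 0.257). In this contrast 2.0% of features were called. With the 2 male oenocyte libraries kept apart, the log2 fold change was 0.29 and passed (edgeR adjusted p = 0.0173); on aligned reads it was −0.09 (edgeR adjusted p = 1.0).

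In fat body the direction turned with the scaling. By TPM females were lower, as given above, but scaled CPM were 14486 and 14744 in females, against 12179 and 12179 in males. The log2 fold change of females over males was 0.26 ± 0.06 (95% interval 0.10 to 0.43; edgeR adjusted p = 0.0985), with 6.14% of features called. On unscaled log2(TPM + 1) it was −0.38 ± 0.08 (limma adjusted p = 0.00462), while the median of all tested genes stood at −0.61 on that scale. Centred on that median, Desat1 was 0.24 ± 0.07 higher in female fat body (limma adjusted p = 0.0357). On aligned reads the difference was 0.09 ± 0.21 (edgeR adjusted p = 0.883). Yp2 alone held 87132 to 88267 TPM in female fat body and 54.6 to 84.7 TPM in male fat body. The 10 most abundant transcripts of each library held 44.7% and 44.9% of estimated counts in female fat body. In male fat body they held 18.1% and 17.6%. What shifted the median was not tested. The same shift touched the comparison of tissue effects: without scaling, the sex by tissue term was 0.68 (limma adjusted p = 0.00529) beside a median of 0.62 over all genes.

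**Figure D3:**
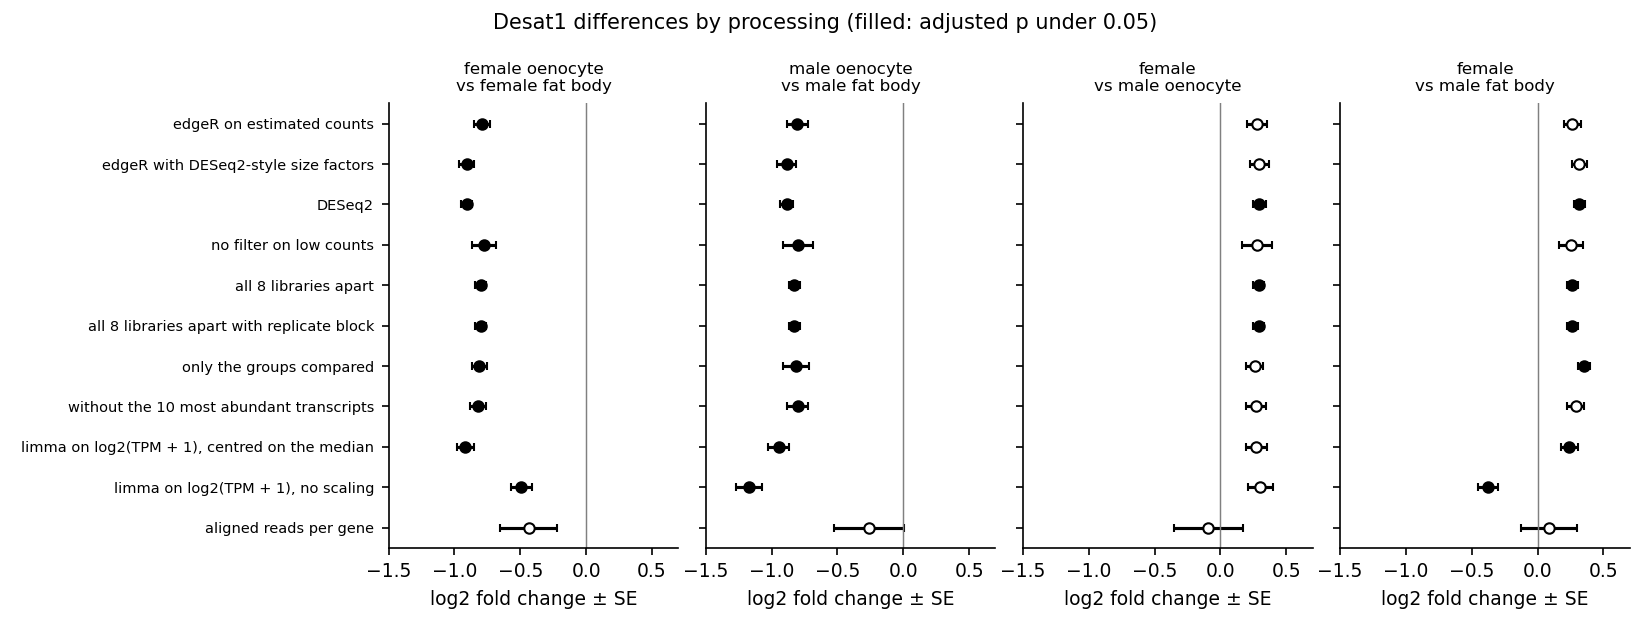
Log2 fold change of Desat1 ± SE in 4 contrasts under 11 ways of processing, filled where the adjusted p was under 0.05. The tissue contrasts lie left of 0 throughout and are open on aligned reads (−0.44 and −0.26), while the fat body sex contrast changes side on unscaled TPM (−0.38).

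Desat1 carried 52.0% to 59.6% of the summed TPM of the 3 desaturase genes with a symbol in oenocytes and 98.9% to 99.4% in fat body. The other genes were Desat2, a desaturase known in D. melanogaster for the pheromones of certain strains, and DesatF, the desaturase that adds the second double bond of female dienes in Drosophila. The share of Desat1 was 59.6% and 59.3% in female oenocytes and 52.0% and 52.0% in male oenocytes. It was 99.4% in both female fat body libraries and 99.0% and 98.9% in male fat body. These shares come from kallisto TPM and depend on it. As shares of aligned reads, which are not adjusted for length, Desat1 held 87.9% and 82.5% of the 3 genes in female oenocytes and 63.6% and 70.1% in male oenocytes.

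By TPM, the other desaturases differed in share between the sexes. Desat2 held 15.9% and 16.5% of the sum in female oenocytes and 46.6% and 46.6% in male oenocytes. DesatF held 24.4% and 24.2% in female oenocytes and 1.44% and 1.43% in male oenocytes. By TPM, Desat1 was thus 3.74 and 3.60 times as abundant as Desat2 in female oenocytes and 1.12 and 1.11 times as abundant in male oenocytes. By aligned reads, not adjusted for length, the same ratios were 15.1 and 6.61 in female oenocytes and 1.76 and 2.57 in male oenocytes. Desat2 then held 5.84% and 12.5% of the aligned reads in female oenocytes and 36.2% and 27.3% in male oenocytes. DesatF held 6.22% and 4.99% in female oenocytes and 0.186% and 2.60% in male oenocytes. Desat2 remained higher in share in male oenocytes and DesatF in female oenocytes, but the sizes of the shares did not carry over.

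Both other desaturases were higher in oenocytes, where Desat1 was lower. Desat2 was higher in oenocytes by 5.92 ± 0.09 on the log2 scale in females and 5.66 ± 0.09 in males (edgeR adjusted p = 2.79e-05 and 5.38e-05). DesatF was higher by 6.30 ± 0.09 in females and 5.42 ± 0.10 in males (edgeR adjusted p = 2.79e-05 and 5.39e-05). Females over males, Desat2 stood at −1.45 ± 0.08 among oenocytes (edgeR adjusted p = 0.00704) and −1.71 ± 0.08 among fat bodies (edgeR adjusted p = 0.00187), lower in females. DesatF stood at 4.21 ± 0.11 among oenocytes (edgeR adjusted p = 0.00139) and 3.33 ± 0.09 among fat bodies (edgeR adjusted p = 0.000495), higher in females. On aligned reads these sex differences kept their signs and did not pass (edgeR adjusted p 0.139 to 0.490). Those of DesatF were smaller there, at 1.87 among oenocytes and 1.75 among fat bodies, and those of Desat2 were larger, at −2.32 and −2.07. On estimated counts, the difference of Desat2 in oenocytes missed the threshold without female oenocyte replicate 2 (edgeR adjusted p = 0.0523). Desat1 and Desat2 are related genes on the same chromosome arm, and whether their reads were exchanged in counting was not tested.

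Of a list of 51 genes for fatty acid synthesis, desaturation and hydrocarbon formation, 5 carried a symbol in the files: Desat1, Desat2, DesatF, Men and Cyp4g15. Men encodes malic enzyme, which makes the NADPH used in fatty acid synthesis. Like Desat1, it fell in oenocytes of females on estimated counts, at −0.50 ± 0.06 on the log2 scale against female fat body (edgeR adjusted p = 0.00418), but on aligned reads it stood at 0.18 (edgeR adjusted p = 0.779). In males its tissue difference was 0.20 ± 0.07 (edgeR adjusted p = 0.145). Men was higher in female than in male fat body by 0.53 ± 0.06 (edgeR adjusted p = 0.0153), against −0.12 on unscaled TPM (limma adjusted p = 0.135), and leaving out 1 library moved the edgeR adjusted p to as much as 0.0906. Cyp4g15, a cytochrome P450 gene, stood at 4.60 and 5.47 TPM in female oenocytes, 8.29 and 8.28 TPM in male oenocytes, 4.17 and 4.53 TPM in female fat body, and 12.0 and 13.7 TPM in male fat body. It passed no contrast (edgeR adjusted p 0.0814 to 0.964).

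Desat1 RNA was assigned to 4 transcripts. Candidates were transcripts at or below the gene's TPM in every library. The 4 were the only set of up to 4, with the most abundant candidate included, whose TPM added up to the gene's in all 8 libraries to 0.01 TPM. Larger sets were not searched. FBtr0365563, of 1727 bases, made up 88.9% to 92.1% of the gene's TPM in oenocytes and 91.1% to 95.9% in fat body. It followed the gene: its log2 fold change between oenocytes and fat body was −0.82 ± 0.08 in females (edgeR adjusted p = 0.00166) and −0.83 ± 0.10 in males (edgeR adjusted p = 0.00435).

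A minor transcript went the other way. FBtr0362956, of 1623 bases, stood at 423 and 406 TPM in female oenocytes, against 14.9 and 8.49 TPM in female fat body. In males it stood at 307 and 288 TPM in oenocytes, against 20.4 and 14.0 TPM in fat body. The groups did not overlap in either sex, and the transcript made up 5.53% to 6.5% of Desat1 TPM in oenocytes and 0.0962% to 0.164% in fat body.

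FBtr0362956 was 19.4-fold higher in oenocytes than in fat body in females, with 4.28 ± 0.28 on the log2 scale (edgeR adjusted p = 0.000458), and 21.7-fold higher in males, 4.44 ± 0.30 (edgeR adjusted p = 0.000602). Among transcripts tested, 12.9% were called higher in oenocytes in females and 10.2% in males. These fold changes were fitted on estimated counts from the tables deposited per library, which were quantified apart from the transcript and gene tables of all libraries. In TPM, the tables per library put FBtr0362956 lower in both tissues than the transcript table of all libraries did, and the tissues stayed apart. There it stood at 152 and 112 TPM in female oenocytes and 135 and 129 TPM in male oenocytes, against 6.04 and 5.91 TPM in female fat body and 10.5 and 6.24 TPM in male fat body. Its share of Desat1 in those tables was 1.59% to 2.28% in oenocytes and 0.0465% to 0.0711% in fat body. Between the sexes its difference was 0.0052 among oenocytes (95% interval −0.75 to 0.77; edgeR adjusted p = 1.0) and 0.17 among fat bodies (95% interval −0.50 to 0.84; edgeR adjusted p = 0.841). Desat2, by comparison, had a mean of 1754 TPM in female oenocytes and 4678 TPM in male oenocytes.

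The remaining transcripts varied more between replicates. FBtr0218747, of 1582 bases, stood at 118 and 275 TPM in female oenocytes and 110 and 111 TPM in male oenocytes, against 366 and 499 TPM in female fat body and 488 and 443 TPM in male fat body. All 4 fat body libraries exceeded all 4 oenocyte libraries, but on estimated counts its log2 fold change was −0.65 ± 0.65 in females (edgeR adjusted p = 0.543) and −0.93 ± 0.83 in males (edgeR adjusted p = 0.508). On TPM from the transcript table of all libraries it was −1.61 in females (limma adjusted p = 0.0247) and −1.82 in males (limma adjusted p = 0.0364). The female value on estimated counts turned on 1 library: it was −1.97 without female oenocyte replicate 2 (edgeR adjusted p = 0.0237) and −0.025 without replicate 1 (edgeR adjusted p = 1.0). FBtr0359433, of 867 bases, stood at 593 TPM in 1 male fat body library and 2.13 TPM in the other, and passed no contrast (edgeR adjusted p 0.719 to 1.0).

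**Figure D4:**
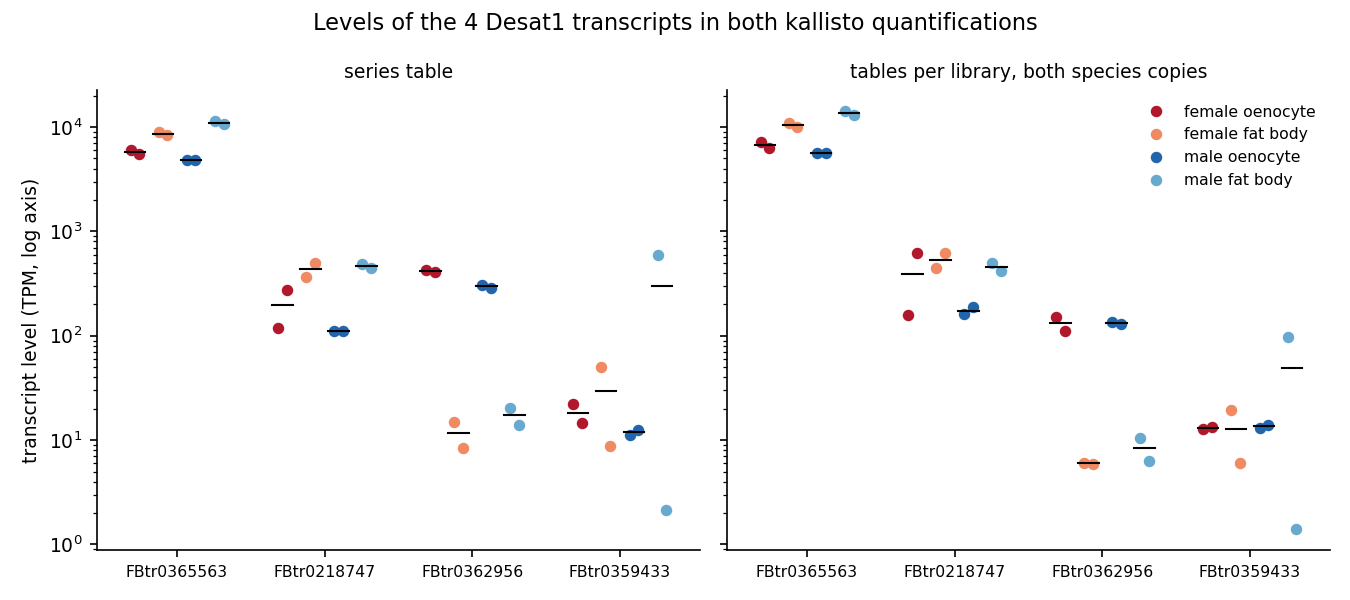
TPM of the 4 Desat1 transcripts on a log axis, in the table of all libraries (left) and in the tables per library (right), with 1 point per library and a line at each group's mean. FBtr0362956 lies at 288 to 423 TPM in oenocytes and 8.49 to 20.4 TPM in fat body on the left, and keeps that separation on the right.

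Desat1 was expressed from both species' copies. The aligned-read tables split reads into a reference class and an alternative class, and the alternative class is taken here as D. sechellia. This assignment rests on the share of reference reads, which correlated across genes with the share kallisto gave to the D. simulans copies (r = 0.581 to 0.842 in the 8 libraries, across genes that are not independent replicates). The kallisto tables held no allelic information for Desat1 itself, because both species' copies of its 4 transcripts had equal counts in all libraries.

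In female oenocytes the D. sechellia copy gave 54.2% of 14613 allele-specific Desat1 reads in replicate 1 (95% Wilson interval 53.4% to 55.0%) and 67.3% of 10806 reads in replicate 2 (66.4% to 68.1%). In male oenocytes it gave 60.9% of 14438 reads (60.1% to 61.7%) and 57.0% of 7942 reads (55.9% to 58.1%). Oenocyte libraries of the same group therefore differed by far more than the intervals, which cover counting error only.

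In female fat body the D. sechellia share was 66.8% of 8823 reads (65.8% to 67.8%) and 66.5% of 12883 reads (65.7% to 67.3%). In male fat body it was 64.6% of 8743 reads (63.6% to 65.6%) and 66.3% of 20055 reads (65.6% to 66.9%). The fat body libraries lay close together, and the male oenocyte libraries were both below them.

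These shares lay near the middle of all genes. The median gene off the X chromosome had a D. sechellia share of 60.0% to 64.3% in the 8 libraries, and Desat1 stood between the 29.4th and the 62.6th percentile. Tested against equal shares, the log2 ratio of D. sechellia to D. simulans reads was 0.64 ± 0.18 in female oenocytes (edgeR adjusted p = 0.0129), 0.56 ± 0.26 in male oenocytes (edgeR adjusted p = 0.132), 1.0 ± 0.18 in female fat body (edgeR adjusted p = 0.00111) and 0.92 ± 0.18 in male fat body (edgeR adjusted p = 0.00158). In the same test 45.5%, 25.5%, 43.5% and 48.4% of 1697 genes were called, in that order of groups. Relative to the median gene of each sample the log2 ratios were −0.09, −0.06, 0.29 and 0.17 and none passed (edgeR adjusted p 0.196 to 0.893). The male oenocyte libraries enter this test summed, although their allele counts differed (chi-square 32.3 for Desat1). Kept apart, they gave a ratio of 0.52 that passed (edgeR adjusted p = 0.030). Without replicate 2 the female oenocyte ratio was 0.24 (edgeR adjusted p = 0.392), and without replicate 1 it was 1.04.

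The allelic ratio of Desat1 did not pass a test of difference between any groups. Oenocytes minus fat body was −0.36 ± 0.26 in females (95% interval −0.92 to 0.20; edgeR adjusted p = 0.973) and −0.36 ± 0.31 in males (95% interval −1.04 to 0.31; edgeR adjusted p = 0.823). Females minus males was 0.08 ± 0.31 in oenocytes (95% interval −0.60 to 0.77; edgeR adjusted p = 0.990) and 0.08 ± 0.26 in fat body (95% interval −0.48 to 0.63; edgeR adjusted p = 1.0). In these contrasts 0.177%, 0.0589%, 0.118% and 0.0589% of genes were called. The female tissue value turned on 1 library: it was 0.04 without female oenocyte replicate 1 and −0.76 without replicate 2. So did the sex difference in oenocytes, at 0.48 without female oenocyte replicate 1 and −0.31 without replicate 2.

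Desat2 and DesatF both stood far from Desat1 in allelic share. The D. sechellia copy gave 97.9% and 99.2% of Desat2 reads in female oenocytes and 99.7% and 98.9% in male oenocytes, on 2570 to 18113 allele-specific reads. In fat body it gave 90.4% to 100% of Desat2 reads, on 20 to 235 reads. For DesatF it gave 95.7% of 2303 and 95.3% of 1111 reads in female oenocytes. In male oenocytes it gave 96.9% of 65 and 100% of 715 DesatF reads. In fat body DesatF had only 1 to 25 allele-specific reads per library, too few for the allelic test. Reads that the files class as ambiguous between alleles made up 3.34% to 8.02% of Desat1 reads, against a median of 1.35% to 1.93% over the well-covered genes of each library. Their part in the Desat1 shares was not tested.

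**Figure D5:**
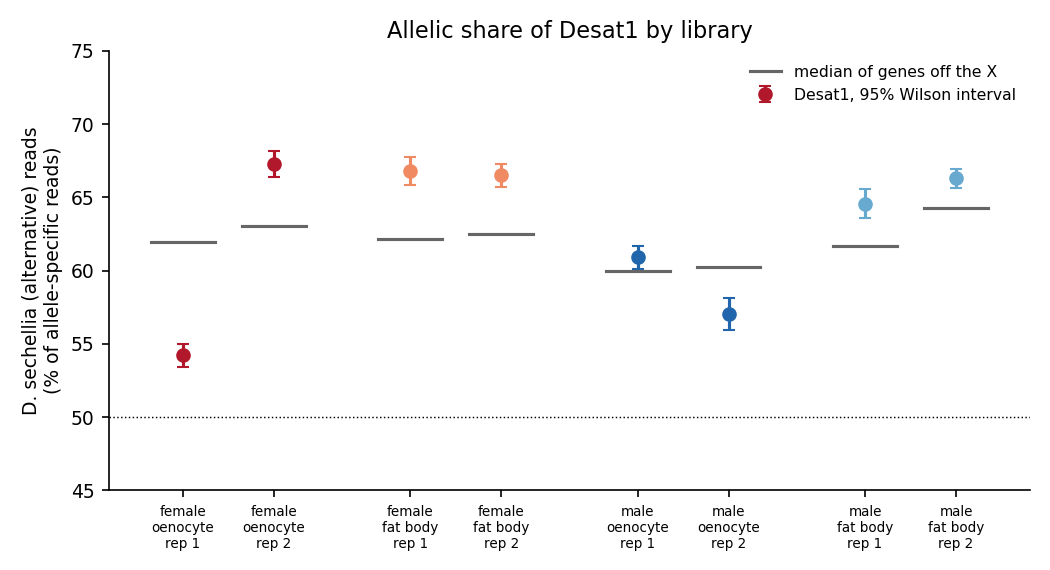
Share of allele-specific Desat1 reads from the D. sechellia (alternative) copy in each library, in percent, with 95% Wilson intervals, beside the median gene off the X chromosome (grey bars); the dotted line marks equal shares. The female oenocyte libraries lie at 54.2% and 67.3%, and the 4 fat body libraries between 64.6% and 66.8%.

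The genes closest to Desat1 in pattern were found by the correlation of log2(TPM + 1) across the 8 libraries among 4102 genes with a mean of at least 10 TPM. The likeness was not rare: 924 genes had r above 0.9, and the libraries share their total RNA composition, so the values are given as a description. The closest were GD15677 (r = 0.998), at 26.9 and 26.0 TPM in female oenocytes, 20.2 and 20.6 TPM in male oenocytes, 46.8 and 41.1 TPM in female fat body and 70.4 and 58.5 TPM in male fat body, and GD10044 (r = 0.997). Among 142 genes that carry a symbol, the closest were Tep2 (r = 0.990), GNBP1 (r = 0.990), cbt (r = 0.989), ATPsyn-beta (r = 0.989) and Mct1 (r = 0.986). Tep2 belongs to the thioester-containing proteins of insect immunity, GNBP1 to the proteins that bind microbial glucans, and ATPsyn-beta encodes a subunit of the mitochondrial ATP synthase. Like Desat1, each was highest in male fat body and lowest in male oenocytes in TPM, an order that the choice by correlation favours. On scaled CPM, where Desat1 was highest in female fat body, the likeness was not examined.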

How the data were processed

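Per the submitters' processing notes, kallisto 0.44.0 and STAR 2.5.1b were used; their roles, the index and the genome build are not given in the sources used here. The deposited tables hold kallisto estimated counts and TPM per transcript and species copy, TPM per transcript and per gene for all libraries, and counts of aligned reads per gene by allele with a deposited log2 ratio where a gene had 20 or more reads assigned to an allele. Species copies were summed and rounded. edgeR 4.0.16 (TMM, default filter, quasi-likelihood) was fitted on 7 samples, the male oenocyte libraries being summed, with Benjamini-Hochberg adjustment over all features at 0.05. Allelic ratios were fitted in edgeR with allele and library terms over genes off the X. limma 3.58.1, DESeq2 1.42.0, other filters and left-out libraries were alternatives. Scripts were tested on simulated data. Named genes were Desat1, its transcripts, Desat2, DesatF, the 5 genes most like it (2 IDs without a symbol are named) and called or measured genes of a pathway list. The gene, lists and tests were chosen with earlier results of these data known.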

Additional observations from a re-analysis of the deposited data

Results flagged for a closer look

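The sex by tissue term passed the threshold for 2 of the genes set beside Desat1, meaning that their oenocyte against fat body difference differed between females and males. For DesatF it was 0.88 ± 0.12 on the log2 scale (edgeR adjusted p = 0.0434), with tissue differences of 6.30 in females and 5.42 in males. For Men it was −0.70 ± 0.10 (edgeR adjusted p = 0.0419), with tissue differences of −0.50 in females and 0.20 in males. Leaving out 1 library moved the term to between 0.77 and 0.96 for DesatF and between −0.75 and −0.64 for Men. Both calls were lost on leaving out any female oenocyte, female fat body or male fat body library. They held only without 1 male oenocyte library, from the pair already summed as 1 sample. The DesatF call was also lost without the most abundant transcripts (0.85, edgeR adjusted p = 0.0513) and the Men call with no filter on low counts (−0.69, edgeR adjusted p = 0.0700). On unscaled TPM the DesatF term was 1.69 (limma adjusted p = 0.000420) and the Men term −0.03 (limma adjusted p = 0.832). On aligned reads neither passed, at 0.12 for DesatF (edgeR adjusted p = 0.977) and −0.61 for Men (edgeR adjusted p = 0.809).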

How the results depend on the processing

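Over all alternatives the Desat1 tissue difference ranged from −0.92 to −0.44 on the log2 scale in females and −1.17 to −0.10 in males. It was lost in both sexes on aligned reads (−0.44 and −0.26) and on aligned reads with all 8 libraries apart, an alternative chosen after seeing the data (−0.44 and −0.10). The cause was not tested. FBtr0362956, which the aligned-read tables do not resolve, was called higher in oenocytes in the 16 alternatives run on transcripts, at 4.0 to 4.71 in females and 4.14 to 4.76 in males. The oenocyte sex difference passed with all 8 libraries apart (0.29), with DESeq2 (0.30) and with all 8 libraries and a replicate block (0.29), and turned on aligned reads (−0.094, and −0.26 with 8 libraries). The fat body sex difference passed with 8 libraries apart (0.26), with the replicate block (0.26), with DESeq2 (0.32), with only the groups compared (0.35) and centred on the median (0.24), and was 0.09 on aligned reads. It turned on unscaled log2(TPM + 1) and log2(TPM + 0.1) and with no filter (−0.38 each). The sex by tissue term was −0.021 with DESeq2-style size factors and with DESeq2, −0.019 without the most abundant transcripts, −0.18 on aligned reads (−0.34 with 8 libraries), and 0.68 on each unscaled TPM fit. Pairing by replicate number was examined by correlating, across features, the difference between replicates of each group with that of another group. The correlations were −0.01 to 0.05 in estimated counts and −0.02 to 0.14 in allelic ratio. Such low values gave little sign of pairing but do not exclude it. The tissue differences of Desat1 were −0.80 and −0.83 with the replicate block.

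Leaving out 1 library at a time gave Desat1 tissue differences of −0.88 to −0.76 in females and −0.85 to −0.80 in males, sex differences of 0.22 to 0.31 in oenocytes and 0.25 to 0.28 in fat body, and a sex by tissue term of −0.031 to 0.044. The allelic log2 ratios were then 0.24 to 1.04 in female oenocytes, 0.41 to 0.64 in male oenocytes, 0.99 to 1.01 in female fat body and 0.87 to 0.98 in male fat body. Their differences were −0.76 to 0.040 between female tissues, −0.51 to −0.28 between male tissues, −0.31 to 0.48 between oenocytes of the sexes and 0.02 to 0.13 between fat bodies. Centred on the median gene, the ratios were −0.085, −0.063, 0.29 and 0.17 and the oenocyte sex difference was −0.022. The male oenocyte ratio passed with 8 libraries apart (0.52), with its own libraries alone and apart (0.52, also added after seeing the data), with the replicate block (0.52), and at 0.56 without either female oenocyte library.

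Among transcripts, signs turned only where no call was made. FBtr0362956 between oenocytes of the sexes was −0.014 with only the groups compared, −0.010 with the replicate block, −0.0028 without the most abundant transcripts and −0.23 to 0.20 without 1 library, and it was −0.12 to 0.50 between fat bodies without 1 library. Its sex by tissue term was 0.41 on TPM from the transcript table of all libraries, an alternative also added after seeing the data. It was −0.49 to 0.13 without 1 library. FBtr0365563 had a sex by tissue term of −0.028 with DESeq2-style size factors and with DESeq2, −0.027 without the most abundant transcripts, and −0.085 to 0.079 without 1 library. FBtr0359433 was 0.21 between female tissues with the replicate block and 0.51 between oenocytes of the sexes on TPM from the transcript table of all libraries. Without 1 library it was −0.74 to 0.81, −2.44 to 3.52, −0.11 to 0.036, −2.32 to 3.63 and −3.69 to 2.27 in the 5 contrasts. FBtr0218747 was −0.18 to 1.80 between oenocytes and −1.04 to 0.95 in the sex by tissue term. Men turned to 0.18 between female tissues on aligned reads with or without summing, and to −0.12 between fat bodies on each unscaled TPM fit.

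Counts of called genes and transcripts were 3709 (2136 to 5335 over alternatives with all libraries) and 3060 (1637 to 4746) between tissues. They were 285 (8 to 1355) and 877 (81 to 5297) between sexes, and 373 (6 to 3383) for the sex by tissue term. The last count fell lower still in some fits with 1 library left out. Fits on aligned reads and on gene TPM tested genes only, and fewer rows than the 14274 of the main fit, so their counts are not directly comparable. Counts of genes with unequal alleles were 772 (475 to 1190), 432 (239 to 1201), 738 (446 to 1168) and 821 (486 to 1267), again over alternatives with all libraries. Between groups they were 3 (3 to 8), 1 (1 to 8), 2 (1 to 7) and 1 (0 to 9). With an unadjusted p under 0.05, edgeR called 97, 108, 63 and 57 of 1697 genes in these 4 contrasts. A fraction of about 0.05 of the genes would pass this limit with no difference at all, so these counts are no sign of differences. An allelic fit on kallisto species copies of Desat1 was not run, since both copies hold equal counts. With only the groups compared there is no sex by tissue term, and with the pair summed the male oenocyte allelic ratio alone has no residual degrees of freedom.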
